A study of Schizosaccharomyces pombe with 4 samples.

Results

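The genes described here are the nearly silent protein-coding genes of growing fission yeast (Schizosaccharomyces pombe) outside the gene clusters next to the telomeres. They were chosen by level. A gene was a member if its mean FPKM (fragments scaled to coding length and library depth) over all 4 libraries was below 3, with a missing value taken as 0. Mitochondrial genes and genes with identifiers of the telomere-proximal clusters were left out. A few genes listed singly were also left out, among them shu1 and the pheromone genes mfm1, mfm2 and mfm3. The mfm genes had means above 3 FPKM, so they are missing only from the comparison with genes above the threshold. The rule kept 81 of the 5133 genes listed in at least 1 library and left out 46 others below 3 FPKM by identifier. Because a mean over both groups chose the members, a gene that went from near 0 in one group to a high level in the other is not among them.

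Total RNA came from cells in logarithmic growth in YEA medium at 30 °C. There were 2 libraries of wild type (WT), both of strain KOR3006, and 2 of Y41F, one each of strains SPBB297 and SPBB298. The labels do not say which protein has the Y41F change; knowledge of the study gives it as tyrosine to phenylalanine in histone H3. Separate cultures are not stated, so a p-value here measures the spread between libraries, which may be technical and, in Y41F, includes any difference between the strains.

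A fission yeast cell growing in rich medium keeps many genes of mating, meiosis and spore formation at a low level. Most are not nearly silent here: the listed sporulation and mating genes had median levels of 16.8 and 11.5 FPKM. The genes of meiosis and spore formation switch on when starved cells of opposite mating type have fused, or when diploid cells starve. Meiosis-specific transcripts that are made too early are recognised by the RNA-binding protein Mmi1 and destroyed in the nucleus, and the silent mating-type cassettes are held in heterochromatin. Tf2 is a family of retrotransposons flanked by long terminal repeats.

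The members held a very small part of the RNA measured. Library totals were between 20845572 and 23616464 expected counts, and the 81 genes together took between 0.00468% and 0.00832% of them. Summed over members, WT library 1 had 1041 counts and WT library 2 had 1365, where Y41F library 1 had 1439 and Y41F library 2 had 1894. The median FPKM of a member was 0.81 and 1.18 in WT and 1.22 and 1.5 in Y41F, where the median over all genes was between 54.7 and 59.7. In the same libraries 8 genes listed as markers of log-phase growth had mean levels of 987.7 to 26479.9 FPKM. Nearly silent did not mean undetected, since 68 of the 81 genes were listed in all 4 libraries. A count of 0 allows a level of up to between 0.127 and 0.144 CPM (counts scaled to library depth), a limit that covers counting error only, as do all counting intervals given here. In bulk RNA at such levels, transcript in fewer cells and less transcript per cell cannot be told apart.

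Few members had enough reads for a firm value in any single library. After rounding, 30 and 32 members had 10 or more counts in the WT libraries, and 41 and 43 had in the Y41F libraries. Members at 0 numbered 7 in each WT library, 5 in Y41F library 1 and 1 in Y41F library 2. Among those at 0 in WT library 2 and in Y41F library 1, mat1-Mc, mat3-Mc and SPMTR.04 count separately but share the same reads. Both Y41F libraries thus had more members at 10 or more counts than either WT library. With all libraries scaled to the smallest total, the numbers at 10 or more were 26 and 32 in WT and 36 and 40 in Y41F. At 5 or more counts, without scaling, they were 48 and 54 in WT and 54 and 62 in Y41F, so that the groups met at 54.

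**Figure D1:**
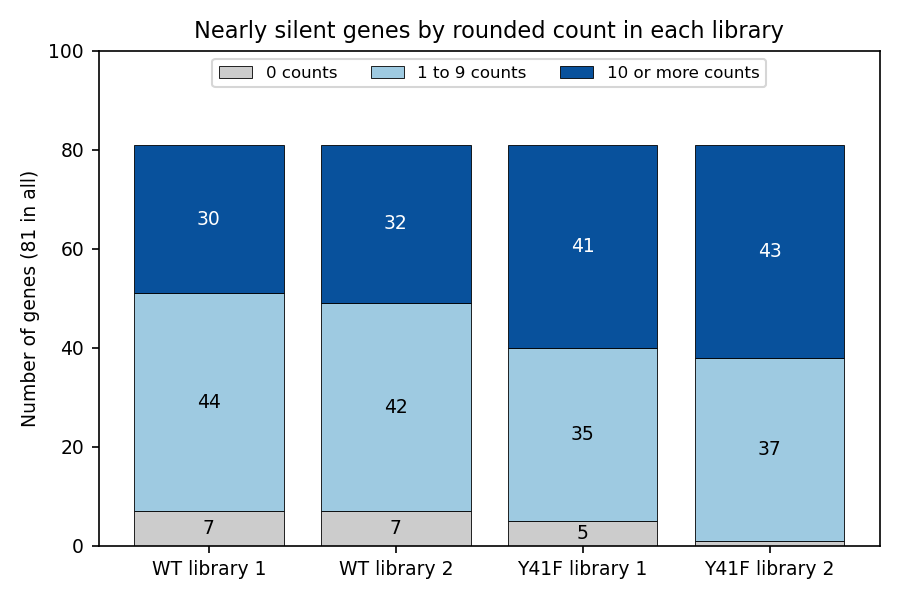
Number of nearly silent genes (vertical axis, 81 in all) with 0, 1 to 9, or 10 or more rounded counts in each library. The Y41F bars hold 41 and 43 genes at 10 or more counts against 30 and 32 in WT, and 1 gene is at 0 in Y41F library 2.

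The members were mostly short genes with no described function. Their median coding length was 360 bases, against 1137 over all genes, and 64 of 81 (79.0%) were under 600 bases, against 20.6% of all genes. Of the 81 identifiers, 75 matched the ASM294v3 annotation, and 44 of those (58.7%) were annotated only as an uncharacterized protein, against 7.16% of all matched genes. The annotation calls 23 of them specific to this species. A single coding exon was found in 59 of 75 (78.7%), against 53.1% of all genes. Length enters FPKM, so a short gene reaches the threshold with few reads: SPAC20G4.09, with 75 coding bases, had 2, 1, 2 and 5 counts (here and later in the order WT 1, WT 2, Y41F 1, Y41F 2) and FPKM of 2.22, 1.18, 2.09 and 5.42.

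Their surroundings were not silent. The median mean FPKM of the genes next to a member was 87.5, against 73.0 for all genes and 5.19 for the low genes left out by identifier. By chromosome, 38 of the 75 matched members lay on I, 23 on II and 14 on III, shares of 50.7%, 30.7% and 18.7% where all genes had 45.6%, 36.5% and 17.9%. The name "outside subtelomeres" held for most but not all of them. In the newer assembly 5 members lay within 100 kb of a chromosome end: fub2, SPAC922.09, SPAPJ695.01c, SPBPB8B6.02c and SPCC569.02c. Only 6 members stood next to another member, in the pairs SPAC17A2.10c with SPAC17A2.11, SPAC9E9.01 with SPAC9E9.02, and mfc1 with SPAPB1A11.02.

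The comparison asked whether these genes had more or less RNA in Y41F than in WT. Levels are CPM scaled by TMM. The summed level of the members was 48.8 and 64.8 CPM in WT and 60.1 and 81.6 CPM in Y41F, means of 56.8 ± 11.3 and 70.8 ± 15.3 (SD, n = 2 per group). The groups overlapped, as WT library 2 stood above Y41F library 1. The ratio of the means was 1.25. No p is given, since with 2 libraries per group the smallest p of an exact permutation test is 0.333.

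Most members leaned to a higher mean in Y41F, and none of those tested was called. The mean CPM was higher in Y41F for 58 of 81 members and lower for 23 (71.6% higher, against 48.9% of all genes), and the median log2 ratio of the group means was 0.28, with 1 count added to each, against -0.004 over all genes. Both Y41F libraries lay above both WT libraries for 28 members (34.6%, against 19.3% of all genes) and below both for 8 (9.88%, against 17.9%). At such counts a lack of overlap can rest on scaling alone: SPAC30D11.02c had 1 count in every library and was among the 8. The 23 members with a lower mean include mat1-Mc, mat3-Mc and SPMTR.04, which share the same reads.

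The edgeR quasi-likelihood test called none of them. The expression filter left 41 members for testing and removed 40; 5 passed only through the Y41F libraries (mei3, SPAC1A6.11, SPAC22F8.03c, SPAC922.09 and SPCC191.10) and meu15 passed only through WT, so these had to differ. Of the 41, 0 had a Benjamini-Hochberg adjusted p under 0.05, where 0.0197% of all genes tested, 1 of 5076, was called. The lowest adjusted p of a member was 0.514 by edgeR. At an unadjusted edgeR p under 0.05, 3 members were higher and 0 lower, against 4.91% and 1.79% of all genes tested (6.7% in either direction). SPCC191.10, 1 of those 3 members, had passed the filter only through Y41F. DESeq2 called 0 members, where it called 1.34% of all genes. With the replicate number as a block, edgeR called 0 members and 1.71% of all genes.

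The lean toward Y41F was not limited to these genes. The next band, with a mean of 3 to under 10 FPKM, held 167 genes. Of these, 129 (77.2%) had a higher mean in Y41F, with a median log2 ratio of 0.21. Both Y41F libraries lay above both WT libraries for 39.5% of the band and below both for 5.99%. From 10 to under 30 FPKM the share with a higher mean in Y41F was 66.0%. From 30 to under 100 it was 50.1%, and at 100 or more it was 30.9%. The median log2 ratio went from 0.30 below 1 FPKM to -0.05 in the most abundant class. The low genes left out by identifier gave 30 of 46 (65.2%). The share therefore fell from the band just above the members to the most abundant genes, and the members below 1 FPKM had a smaller share, 63.9%, than those from 1 to under 3 FPKM, 77.8%.

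The libraries of a group also differed with level. In Y41F, library 2 was above library 1 for 57 of 81 members, against 50.6% of all genes. In WT it was above for 44 of 81, against 49.2% of all genes. The median log2 ratio was 0.20 in Y41F and 0.01 in WT. By level, the share of genes higher in WT library 2 than in WT library 1 was 61.1% below 1 FPKM, 48.9% from 1 to under 3, 67.1% from 10 to under 30 and 27.5% at 100 or more. In Y41F the same shares were 63.9%, 75.6%, 59.6% and 39.9%. The part that this difference between libraries plays in the lean toward Y41F was not tested. Taken number by number, Y41F library 1 was above WT library 1 for 52 of 81 members, against 50.5% of all genes. Y41F library 2 was above WT library 2 for 55 of 81, against 48.6% of all genes. The same 40 members (49.4%) were higher in both, against 29.3% of all genes, and 14 (17.3%) were lower in both, against 30.1%. Members were not alone in this: in the band from 3 to under 10 FPKM, 84 of 167 genes were higher in both. In that band 17 were lower in both.

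**Figure D2:**
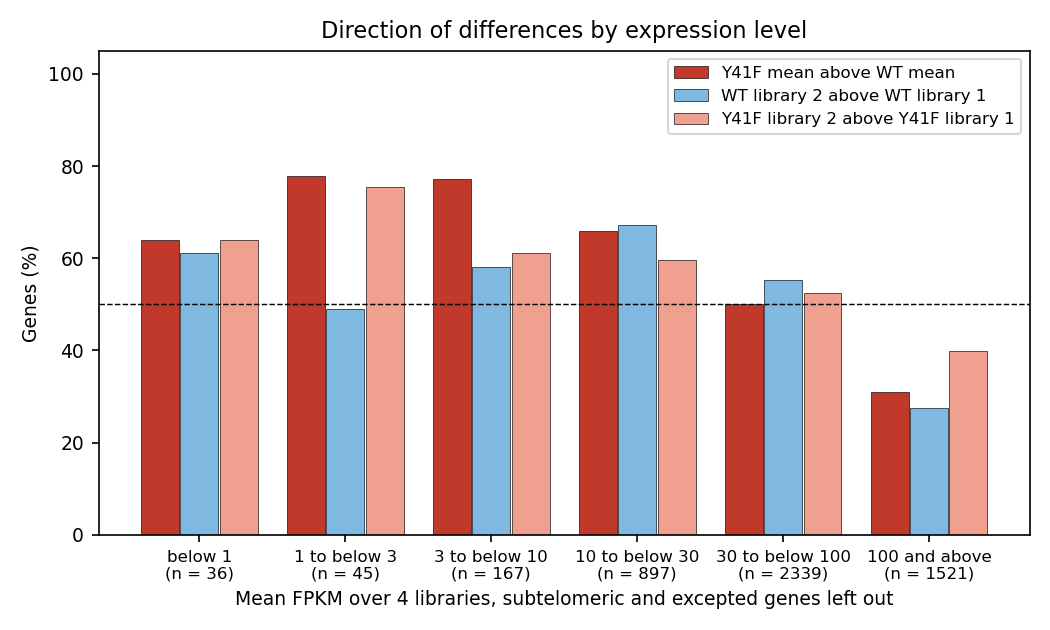
Share of genes with the higher value (vertical axis, percent) in 6 classes of mean FPKM over all 4 libraries (horizontal axis), for the Y41F mean over the WT mean and for library 2 over library 1 within each group. The share higher in Y41F goes from 77.8% at 1 to under 3 FPKM to 30.9% at 100 or more, and the shares within a group also vary with level.

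**Figure D3:**
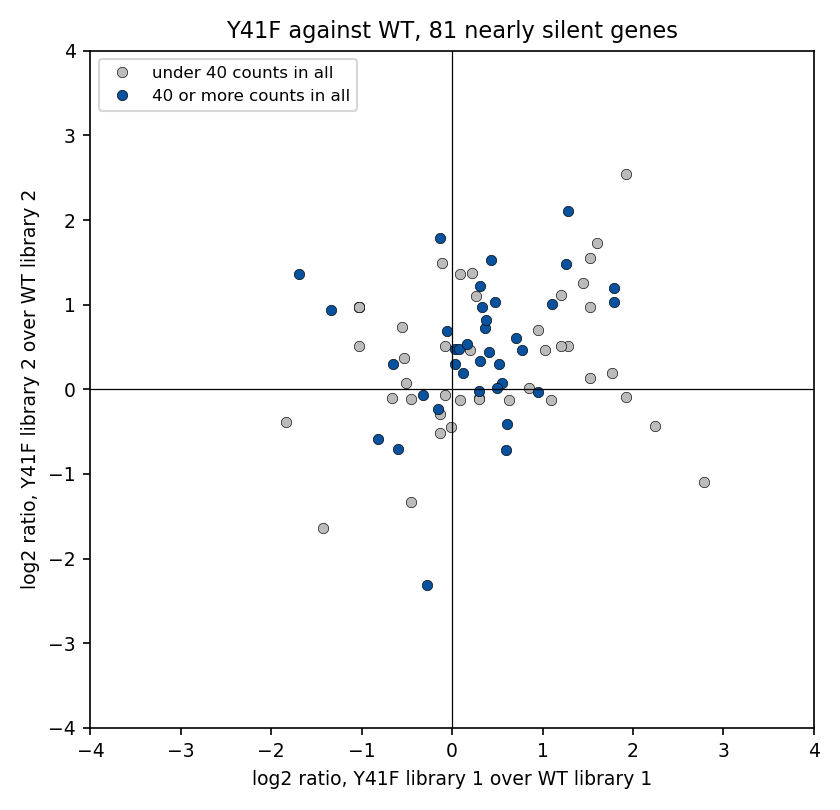
Log2 ratio of Y41F to WT for each nearly silent gene between the libraries numbered 1 (horizontal axis) and those numbered 2 (vertical axis), 1 point per gene. Of 81 genes, 40 are above 0 on both axes and 14 below 0 on both.

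Of the 81 members, 20 belong to mating, meiosis or spore formation or take their name from screens for genes raised in meiosis. The first 4 act at mating and entry into meiosis. The M-specific transcription factor Mc is encoded at the expressed locus (mat1-Mc) and at a silent cassette (mat3-Mc). Together with SPMTR.04 these had identical expected counts of 0.67, 0, 0.33 and 1, so they are 1 measurement of shared reads. RNA of this factor was therefore at or near 0 in every library. SPMTR.02, another unmatched identifier with the same prefix as SPMTR.04, had 11, 11, 14 and 18 counts.

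Mei3, the protein that starts meiosis by inhibiting the Pat1 kinase, was nearly off in both groups. The gene mei3 had 9 and 6 counts in WT, against 14 and 21 in Y41F, or 0.95 and 0.67 against 1.39 and 2.16 FPKM. Both Y41F libraries were above both WT libraries. The log2 fold change was 1.06 ± 0.58 (SE; edgeR adjusted p = 0.797), in a gene that passed the filter only through Y41F. The gene tht2, linked to nuclear fusion after mating, had 20, 39, 23 and 53 counts. In each group it was higher in library 2, and the groups overlapped (log2 fold change 0.22 ± 0.58, edgeR adjusted p = 0.959).

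The next 6 act on meiotic chromosomes, and 5 of them had the higher mean in Y41F (median log2 ratio 0.36). Rec15 is needed to make the DNA breaks that start meiotic recombination. The gene rec15 had 20 and 22 counts in WT, against 28 and 58 in Y41F, or 1.70, 2, 2.25 and 4.84 FPKM. The groups did not overlap, and Y41F library 2 stood apart from the other three (log2 fold change 0.88 ± 0.49, edgeR adjusted p = 0.797).

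Meu13, the counterpart of the Hop2 protein, promotes pairing of homologous chromosomes. The gene meu13 had 9 and 18 counts in WT, against 23 and 41 in Y41F. The groups did not overlap, yet within each group library 2 was about as far above library 1 as the groups were apart (log2 0.95 in WT, 0.85 in Y41F, and 1.09 ± 0.56 between groups, edgeR adjusted p = 0.797). The gene rec27, for a protein of the linear elements on which recombination takes place, had 21, 18, 25 and 28 counts. Its groups did not overlap, with a log2 fold change of 0.29 ± 0.40 (edgeR adjusted p = 0.910).

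The other three served chromosome movement and attachment. The gene dic1, for a dynein chain that works in the nuclear movements of meiotic prophase, had 60 and 95 counts in WT, against 90 and 143 in Y41F. WT library 2 lay above Y41F library 1, so the groups overlapped (log2 fold change 0.44 ± 0.37, edgeR adjusted p = 0.858). The gene moa1, for a protein that makes sister kinetochores attach to 1 pole in the first meiotic division, had 9, 10, 16 and 8 counts, with the highest and the lowest value both in Y41F (log2 fold change 0.18 ± 0.61, and -0.37 without Y41F library 1). The gene bqt2, which gathers telomeres at the spindle pole body, had 4, 6, 3 and 6 counts and was not tested.

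For spore formation, spo13, whose product sits on the meiotic spindle pole body where the spore membrane starts, had 19 and 15 counts in WT, against 28 and 30 in Y41F. The FPKM were 2.16, 1.82, 2.99 and 3.33. The groups did not overlap and the libraries within each were close (log2 fold change 0.62 ± 0.41, edgeR adjusted p = 0.821). The gene mfc1, for the copper transporter of the developing spore membrane, had 41, 37, 47 and 57 counts, again without overlap (0.26 ± 0.32, edgeR adjusted p = 0.902).

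The 8 further genes whose names come from meiotic screens did not lean either way: 4 had the higher mean in Y41F and 4 the lower, with a median log2 ratio of 0.03. The gene mug146 had 42 and 31 counts in WT, against 66 and 71 in Y41F, without overlap (log2 fold change 0.76 ± 0.31, edgeR adjusted p = 0.760). The gene mug45 had the most counts of the group, with 153, 141, 137 and 148, and a log2 fold change of -0.20 ± 0.19 (edgeR adjusted p = 0.881). WT library 2 had fewer counts than Y41F library 2, so the groups failed to overlap only after scaling.

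The remaining ones were at low counts or mixed. The gene meu15 had 12 and 11 counts in WT, against 3 and 9 in Y41F, lower in both (log2 fold change -1.07 ± 0.73, edgeR adjusted p = 0.823), and it passed the filter only through WT. The gene mug93, annotated as the ortholog of human RPAP3, had 50, 71, 69 and 77 counts, which overlapped (0.12 ± 0.30, and -0.12 without WT library 1). The gene mug153 stayed between 12 and 14 counts in every library. The gene mug150 had 1, 3, 14 and 1 counts, so its higher Y41F mean came from library 1, and mug116 and mug96 had at most 3 counts in any library.

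**Figure D4:**
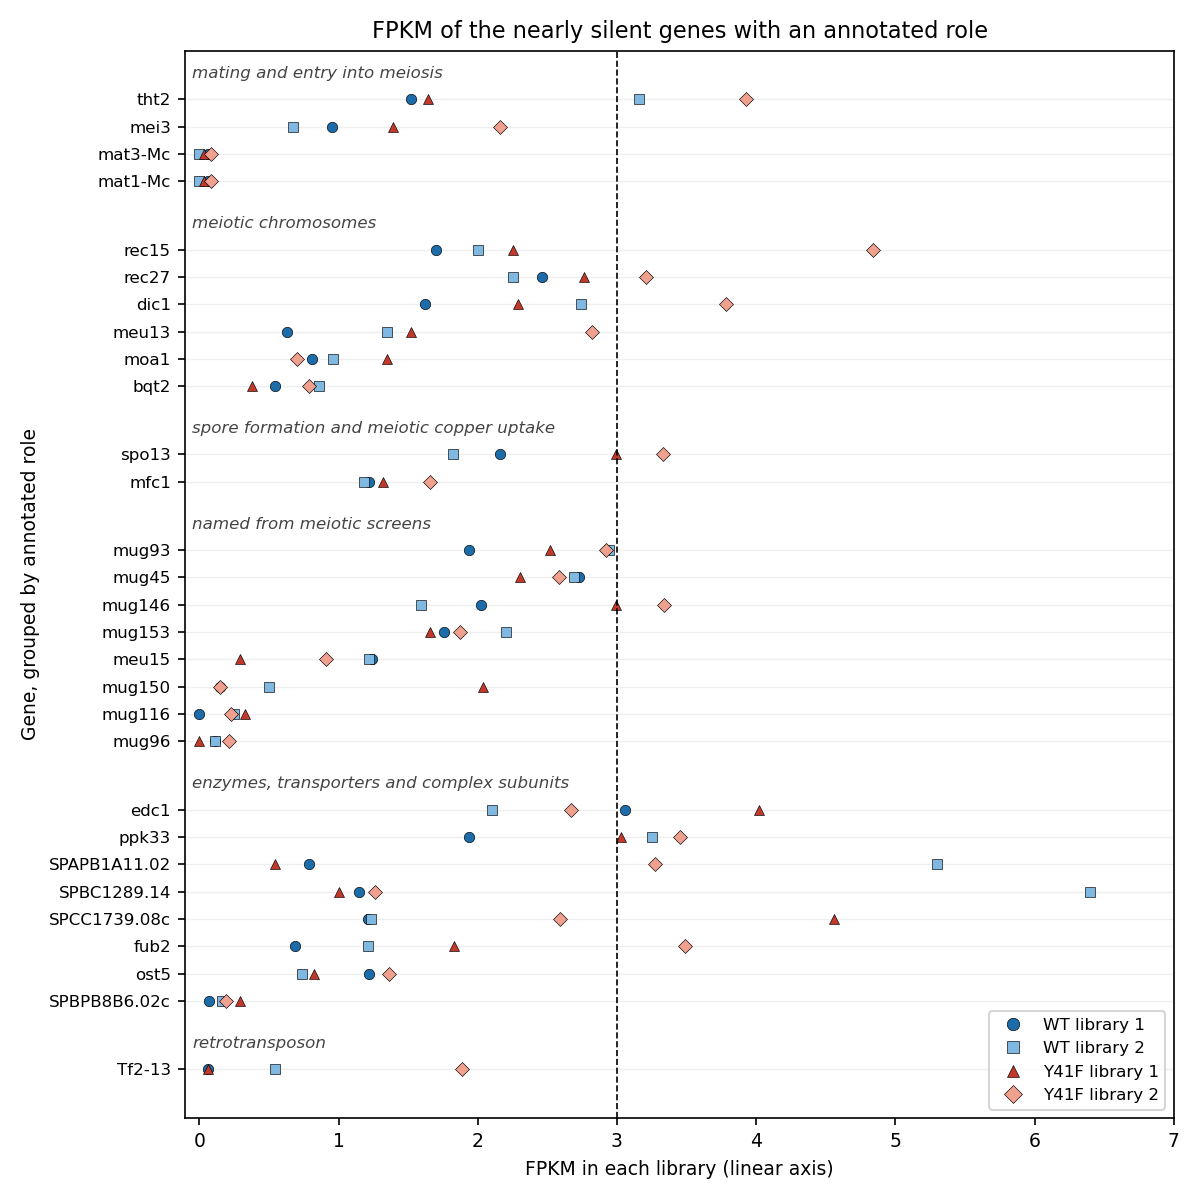
FPKM in each library of the nearly silent genes with an annotated role or a name from meiotic screens, in groups (1 marker per library). The meiotic chromosome genes rec15 and meu13 reach 4.84 and 2.82 FPKM in Y41F library 2, and mat1-Mc and mat3-Mc lie at or near 0 in every library.

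The wider programmes to which these genes belong were described by the same fit, over lists chosen with earlier results of these data known. Of 17 meiotic recombination genes, 3 of them members, 13 had a higher mean in Y41F and 4 a lower one (median log2 ratio 0.26), and 0 were called by edgeR. The share higher was 76.5%, against 48.9% of all genes and 77.2% of the band from 3 to under 10 FPKM. At an unadjusted edgeR p under 0.05, 3 were higher and 0 lower, against 4.91% and 1.79% of all genes tested. In that band, 16 of 166 genes tested were higher and 1 lower at this p. All 3 were outside the members. The gene hop1 had a log2 fold change of 0.94 ± 0.23, rec10 of 1.05 ± 0.32 and mde2 of 0.46 ± 0.13. The lowest edgeR adjusted p of the list was 0.421. Meiotic control and nuclear movement gave 15 higher and 9 lower of 24 (median 0.08), sporulation and the spore wall 12 and 11 of 23 (0.00), and mating and pheromone response 13 and 11 of 24 (0.03). Of 10 transcripts known as targets of Mmi1, none of them members, 8 were higher and 2 lower (0.14). Other lists without members went both ways: 18 higher and 2 lower of 20 wtf genes (0.25), 15 and 13 of 28 for starvation and nutrient uptake (0.02), and 3 and 9 of 12 for flocculation and the cell surface (-0.06). None of these lists held a gene called by edgeR. The mug genes as a whole gave 101 higher and 75 lower (0.06), and the meu genes 17 and 11 (0.05), so the members' own split was set beside a lean that varied between lists.

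Outside meiosis, the 2 members with a known product and the smallest p were a dehydrogenase and a proteasome factor. SPCC1739.08c, annotated as a dehydrogenase, had 21 and 20 counts in WT, against 84 and 46 in Y41F, or 1.21, 1.23, 4.56 and 2.59 FPKM. The WT libraries were alike and both Y41F libraries were above them, library 1 the most. Its level went from 0.967 ± 0.024 to 2.75 ± 1.08 CPM (SD, n = 2 per group), or 1.501 ± 0.42 as a log2 fold change (SE; edgeR adjusted p = 0.514). Over summed counts the ratio was 2.85, with an exact 95% counting interval of 1.99 to 4.16.

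The gene fub2, for a protein of the PI31 family of proteasome regulators, had 11 and 18 counts in WT, against 31 and 57 in Y41F, or 0.69, 1.21, 1.83 and 3.49 FPKM. The groups did not overlap, and library 2 was the higher one in each (log2 fold change 1.45 ± 0.52, edgeR adjusted p = 0.710). It is 1 of the 5 members within 100 kb of a chromosome end. All 5 had the higher mean in Y41F, as had 69.7% of the other members and 48.9% of all genes. Of the low genes left out by identifier, 65.2% had the higher mean in Y41F. The urea transporter gene SPBPB8B6.02c, another of the 5 members, had 3, 7, 14 and 9 counts and was not tested.

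Other members with a known product differed little or overlapped. The gene edc1, for an activator of mRNA decapping, had 64, 41, 89 and 57 counts, with library 1 the higher in both groups (log2 fold change 0.32 ± 0.37, and -0.0018 without Y41F library 1). The protein kinase gene ppk33 had 44, 69, 73 and 80 counts (0.28 ± 0.32, and -0.01 without WT library 1). The gene ost5, for a subunit of the enzyme that attaches sugar chains to proteins, had 4 to 8 counts in every library.

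A few genes jumped between libraries of the same group. SPAPB1A11.02, annotated as an esterase or lipase and the neighbour of mfc1, had 18 and 113 counts in WT, against 13 and 76 in Y41F. It was high in library 2 and low in library 1 of both groups, a log2 difference of 2.61 in WT and 2.50 in Y41F, while mfc1 was even. Its log2 fold change was -0.70 ± 1.05 (edgeR adjusted p = 0.917), and 1.17 without WT library 2. The adducin gene SPBC1289.14, for a relative of proteins that cap actin filaments in animals, had 25 and 130 counts in WT, against 23 and 28 in Y41F, so WT library 2 alone was high. Its log2 fold change was -1.76 ± 0.78 (edgeR adjusted p = 0.766) with all libraries, and -0.11 without that library.

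The retrotransposon Tf2-13 had the widest jump. Its expected counts were 5.08 and 46.1 in WT and 5.48 and 176.7 in Y41F, or 0.06, 0.54, 0.06 and 1.89 FPKM. It was low in both libraries numbered 1 and higher in both numbered 2, by log2 2.999 in WT and 4.92 in Y41F. The log2 fold change was 1.69 ± 1.49 (edgeR adjusted p = 0.865), and -2.50 without Y41F library 2. Tf2 elements are near-identical copies, so how the authors' counting split their reads makes this value uncertain. The other 12 listed Tf2 elements were not silent, with mean levels of 10.7 to 56.5 FPKM. Several had identical counts, so the 13 elements are 6 distinct measurements, of which 3 had the higher mean in Y41F and 3 the lower.

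Of the 44 uncharacterized members, 33 had the higher mean in Y41F and 11 the lower, with a median log2 ratio of 0.30. Both Y41F libraries lay above both WT libraries for 14 (31.8%, against 34.6% of all members and 19.3% of all genes). They lay below both for 4 (9.09%, against 9.88% of all members and 17.9% of all genes). SPCC191.10 had 6 and 5 counts in WT, against 26 and 14 in Y41F, without overlap (log2 fold change 1.68 ± 0.61, edgeR adjusted p = 0.710). SPAC22F8.03c had 3, 4, 11 and 12 counts, with close libraries in each group (1.53 ± 0.69, edgeR adjusted p = 0.774). Both passed the filter only through Y41F. SPBC13G1.15c had 10, 8, 19 and 14 counts (0.71 ± 0.53, edgeR adjusted p = 0.850).

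In the other direction, SPCC1672.14 had 29 and 25 counts in WT and 18 in each Y41F library, a log2 fold change of -0.73 ± 0.40 (edgeR adjusted p = 0.797). SPAC3G6.07 had 5, 10, 1 and 30 counts, with the lowest and the highest value both in Y41F, and a log2 fold change of 0.90 that became -2.92 without Y41F library 2. SPBC83.19c had 2, 9, 7 and 46 counts, highest in library 2 of each group. It was not tested, and its summed-count ratio was 4.33 (exact 95% counting interval 2.24 to 9.20). The interval covers none of the spread between its libraries.

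3 members were at 0 in both WT libraries and had a few counts in both Y41F libraries. SPAC1142.09 had 3 and 5 counts in Y41F, the small gene new14 had 2 in each library, and SPCC16C4.21 had 2 and 1. No fold is given, as at least one Y41F library of each was at or under the 3 counts that a count of 0 allows. No member was at 0 in both libraries of one group and at 10 or more counts in both of the other.

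**Figure D5:**
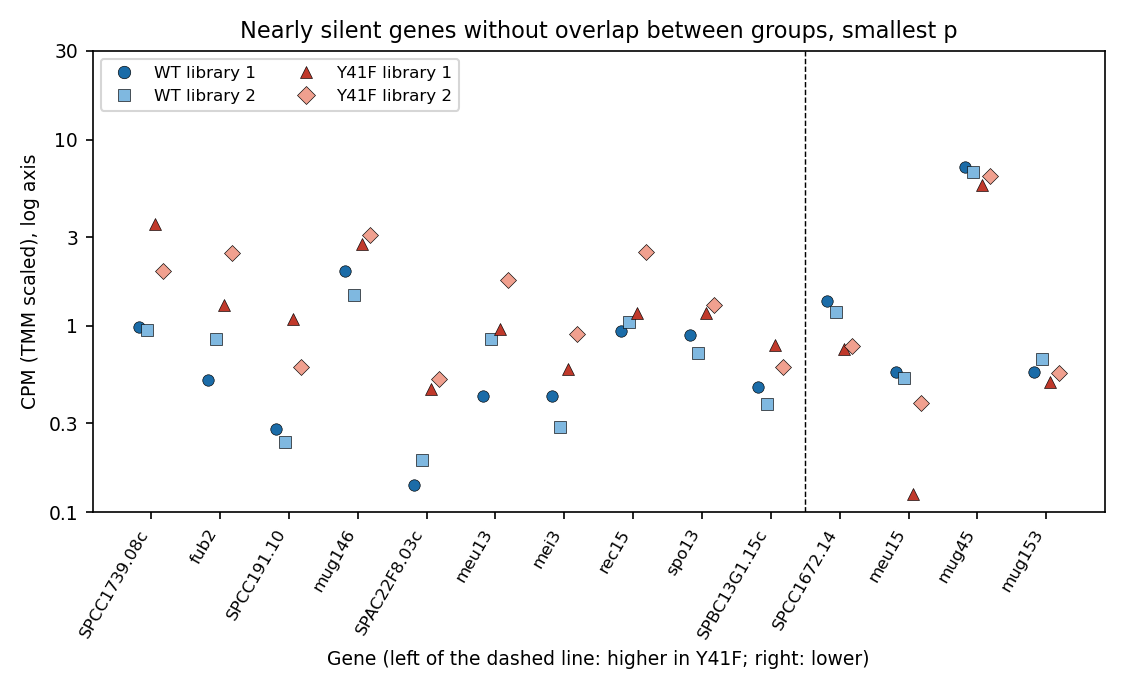
TMM-scaled CPM (vertical log axis) in each library for the tested genes whose groups do not overlap, with the smallest edgeR p first on each side of the dashed line (left, higher in Y41F; right, lower). SPCC1739.08c goes from 0.967 CPM in WT to 2.75 CPM in Y41F, and none of the genes shown was called.

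Some members share sequence with a neighbour, and no source used here says whether strand entered the counting. Coding sequence overlapped the full extent of another protein-coding gene in 10 of 75 matched members (13.3%, against 14.8% of all genes). Whether the overlap reached the coding part of the partner was not examined. The gene mug45 overlaps nce103, for carbonic anhydrase, which had a mean of 248 FPKM and a log2 fold change of -0.66 ± 0.12 (edgeR adjusted p = 0.283). The gene new14 overlaps the ribosomal protein gene rps1701, at 2396 FPKM, and still had at most 2 counts. The gene rec27 overlaps tho5 at 86.1 FPKM, spo13 overlaps ung1 at 44.2 FPKM, and rec15 overlaps SPBC1711.15c, itself a low gene. Where the coding parts of such partners overlap, their reads cannot be told apart without strand.

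The threshold falls within a continuous range of levels. The members nearest to it had mean FPKM of 2.92 (ppk33), 2.96 (edc1) and 2.975 (SPCC569.02c), and the genes just outside had 3.015 (wtf18), 3.07 (SPAC1834.13) and 3.125 (grt1). The expected counts of SPCC569.02c were 18.3, 18.3, 28.6 and 19.99 and not whole, which marks reads shared with another gene.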

How the data were processed

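Total RNA of 2 WT and 2 Y41F fission yeast samples was sequenced, and each sample has a deposited gene table. Per the file headers it gives coding length, an expected count and an FPKM value per gene. Expected counts are estimates that need not be whole. Per the submitters' processing notes, BWA, Bowtie and RSEM and the build ASM294v2 were used. Versions and roles of the tools are not stated in any source at hand. A gene missing from a table was taken as 0. The authors' FPKM chose the members. The members and gene lists were chosen with earlier results of these data known.

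Expected counts were rounded, scaled by TMM and tested over all genes in edgeR 4.0.16 (R 4.3.3; quasi-likelihood F test), whose default filter left 5076 of 5133 genes. A call needs a Benjamini-Hochberg adjusted p under 0.05. DESeq2 1.42.0 and limma 3.58.1 were alternatives. Log2 ratios of group means add 1 count. Standard errors were computed as fold change over the root of F. The scripts were tested on simulated data. Within-group libraries were not duplicates (chi-square per degree of freedom 43.3 in WT and 63.6 in Y41F). Total counts were between 20845572 and 23616464 per library, and exact binomial intervals on them cover counting error only.

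Names and neighbours came from ASM294v3, which matched 5100 of 5133 identifiers. As the builds differ, no coordinates or sequences are given. Of 156 list entries, 10 matched no gene in the tables and were not analysed here. Named genes were the 10 tested members with the smallest p in each direction without overlap, of which only 4 were lower, the 3 most abundant members of each list, the genes next to the threshold and the 5 with the largest jumps between libraries. Genes of known role, with a name from meiotic screens, at 0 in WT or with overlapping partners were named beside these after their values were seen.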

Additional observations from a re-analysis of the deposited data

How the results depend on the processing

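No member was called under any alternative. The lowest adjusted p of a member ranged from 0.0553 (SPCC1739.08c without Y41F library 2) to 0.863. Leaving out a library leaves a group of 1, which is then assumed to vary like the other group, so these p-values and calls rest on the spread of 1 pair. The number of all genes called was 1 with edgeR, 68 with DESeq2, 3 with limma on log2(FPKM + 1), and 0 to 197 with a library left out (0 without either WT library, with 168 and 262 genes at an unadjusted edgeR p under 0.05; 65 without Y41F library 1 and 197 without Y41F library 2). With the replicate number as a block edgeR called 87 genes (77 higher, 10 lower) and 0 members (lowest adjusted p 0.168). Same-numbered libraries deviated together (r = 0.450 across 5076 genes and 0.637 across the 41 members tested, which are not independent), but with 2 pairs and no label for a shared batch they share only a number. The median edgeR log2 fold change of tested members, 0.29, was 0.73 and 0.72 for thresholds of 1 and 2 FPKM, and 0.24 to 0.60 with a library left out. Few members below 1 FPKM passed the filter, some through 1 group only, so these medians do not show a larger difference at lower levels. Over all 36 members below 1 FPKM the median log2 ratio of group means was 0.30. The ratio of summed levels, 1.25, was 1.76 and 1.63 at those thresholds, where Tf2-13 was part of the sum, and 1.06 to 1.45 with a library left out. The difference in members at 10 or more counts, 11 between group means, was 9 after scaling to the smallest library and 7 at 5 or more counts, both chosen after seeing the data. Members higher in Y41F numbered 48 to 63 with a library left out. Of 316 alternatives for 25 named genes, 307 kept the direction and side of the threshold and 9 reversed. With a library left out, the log2 fold change ranged from -0.37 (without Y41F library 1) to 0.57 for moa1, -0.12 (without WT library 1) to 0.40 for mug93, -0.0096 (without WT library 1) to 0.65 for ppk33, -0.0018 (without Y41F library 1) to 0.67 for edc1, -2.50 (without Y41F library 2) to 4.03 for Tf2-13, and -2.92 (without Y41F library 2) to 1.86 for SPAC3G6.07. The last was -0.17 by limma on log2(FPKM + 0.1). SPAPB1A11.02 had a value of 1.17 when WT library 2 was left out and of 0.09 when Y41F library 1 was, with a lowest value of -2.50. The causes were not tested. Depth limits most members: 44 of 81 had under 40 counts over all libraries.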
